A study of Mus musculus with 16 samples.

Results

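The lung-minus-pancreas difference compared what restoring Smad4 did to open chromatin in pancreatic cancer cells growing in the lungs with what it did in the same kind of cells growing in the pancreas. For each peak, the change in the pancreas (Smad4 restored minus Smad4 off) was subtracted from the change in the lungs, on the scale of log2(normalised count + 1). A positive value means that the change was higher in the lungs, which can be a gain in the lungs, a loss in the pancreas, or both. The comparison used 12 of the 16 samples of the series, 3 in each of 4 groups, and all 136630 nuclear peaks, with no choice of peaks by their values.

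The samples were ATAC-seq libraries, in which a transposase cuts open chromatin so that read counts over a peak measure its accessibility. The cells were KC-shSmad4 pancreatic ductal adenocarcinoma cells, which derive from mice with pancreas-specific Ptf1a-Cre and carry a short hairpin RNA that silences Smad4 under doxycycline and the red fluorescent protein mKate2. Cell lines derived from KC-shSmad4 tumours were transplanted into athymic nude mice, which lack T cells but keep other immune cells. mKate2-positive cells were then sorted from the organ, 1 mouse a sample per the study. Which line each mouse received is not given in the sources used here.

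All groups received doxycycline from the start, which held Smad4 off. In the pancreas groups, cells were injected into the pancreas, tumours grew for 4 weeks, and the drug was either kept (Smad4 off) or withdrawn for 14 days (Smad4 restored). In the lung groups, cells were injected into the tail vein and grew for 6 weeks before withdrawal or continued drug, also for 14 days per the labels though the lung column names carry a day number 1 higher. Organ, route of injection and growth time therefore changed together and cannot be told apart. The groups were read from the labels and from the doxycycline state in the column names. Doxycycline on was taken as Smad4 off and its withdrawal as Smad4 restored, as the study defines them. The library codes in the column names follow the order of the samples only under the opposite reading, under which every sign given here would flip. The hairpin acts on the mRNA, so accessibility of the Smad4 promoter does not check the labels.

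SMAD4 is the shared partner of the receptor-activated SMAD proteins, which enter the nucleus after TGF-beta or BMP ligands bind their receptors and act on genes together with other transcription factors. In the pancreas the pathway is best known for restraining the growth of epithelial cells and for driving epithelial-mesenchymal transition, and loss of SMAD4 is frequent in pancreatic ductal adenocarcinoma. SMAD4 binds DNA weakly on its own, so which sites it reaches depends on chromatin that other factors have opened.

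Each sample held 23.0 to 38.2 M reads in the table, and mitochondrial reads were 1.43 to 3.56% of them. Promoter peaks were present for 6 of 6 ductal epithelial markers, with summed normalised counts of 14132 to 28405 per sample. Markers of other cells were low. Of 7 leukocyte markers only Csf1r had a promoter peak, at 8.40 to 54.4 counts, and Ptprc, Cd3e, Cd79a, Spi1 and Itgam were among those with none. Promoter peaks were found for 2 of 7 lung epithelial markers (summed counts 91.2 to 436) and 2 of 7 acinar markers (144 to 335). For 4 of 5 fibroblast markers, summed promoter counts were 464 to 1138 in the pancreas and 143 to 432 in the lungs, and for 4 of 5 endothelial markers 156 to 767. In bulk samples, fewer cells of a type and less accessibility per cell cannot be told apart. Lung Smad4 off replicate 1 stood apart over the distal part of chromosome 6, where its median level lay 1.41 above the mean of the 12 samples on the log2 scale, and values there are given apart.

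The peaks with the smallest p for the difference are shown first through their sequence, because the lower ones include members of near-identical gene families and the reader can see what distinguishes them. Each line gives the central 200 bases of a peak, for peaks where these overlap no untranslated region, on the plus strand of the RefSeq mouse genome GRCm38.p6, the build of the files (mm10). Capitals mark matches, on either strand, to 10 consensus words searched for: RUNX TGTGGT, AP-1 TGANTCA, KLF GGGCGGG or GGGTGTG, SMAD GTCTAGAC, TEAD GGAATG, ETS CCGGAA, FOX TGTTTAC, HNF1 GTTAATNA, HNF4 CAAAGTCC and CTCF AGGGGGC. The first 3 had a change higher in the lungs and the others a change lower in the lungs.
Atg7 intron, chr6:114648504-114648703: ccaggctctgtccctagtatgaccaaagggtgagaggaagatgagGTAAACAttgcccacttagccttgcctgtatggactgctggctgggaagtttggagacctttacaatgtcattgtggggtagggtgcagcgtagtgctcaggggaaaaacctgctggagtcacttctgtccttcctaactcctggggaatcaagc
Kcnq1 intron, chr7:143123375-143123574: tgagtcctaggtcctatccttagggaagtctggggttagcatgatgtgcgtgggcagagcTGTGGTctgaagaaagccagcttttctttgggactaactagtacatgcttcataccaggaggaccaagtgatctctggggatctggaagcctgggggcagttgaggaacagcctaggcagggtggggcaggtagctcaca
Intergenic, nearest Slc6a6, chr6:91660144-91660343: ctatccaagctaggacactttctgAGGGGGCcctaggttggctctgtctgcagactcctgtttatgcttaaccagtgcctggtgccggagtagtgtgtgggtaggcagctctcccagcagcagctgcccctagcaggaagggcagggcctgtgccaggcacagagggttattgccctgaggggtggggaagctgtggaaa
Ear1 intron, chr14:43869755-43869954: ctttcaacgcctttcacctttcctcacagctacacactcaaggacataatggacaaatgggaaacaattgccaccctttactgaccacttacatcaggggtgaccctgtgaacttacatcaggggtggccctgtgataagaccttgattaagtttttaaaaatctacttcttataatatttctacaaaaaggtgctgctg
Intergenic, nearest Ear10, chr14:43917779-43917978: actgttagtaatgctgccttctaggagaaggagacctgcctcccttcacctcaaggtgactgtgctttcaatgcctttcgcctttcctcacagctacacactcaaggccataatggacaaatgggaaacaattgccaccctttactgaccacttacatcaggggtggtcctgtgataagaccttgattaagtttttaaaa
Rnaset2b, nearest start Gm1604a, chr17:7009307-7009506: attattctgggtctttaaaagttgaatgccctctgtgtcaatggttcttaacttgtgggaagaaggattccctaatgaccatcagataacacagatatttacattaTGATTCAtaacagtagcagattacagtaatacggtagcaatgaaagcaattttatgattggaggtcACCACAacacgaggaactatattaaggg
Rnaset2a, chr17:8117239-8117438: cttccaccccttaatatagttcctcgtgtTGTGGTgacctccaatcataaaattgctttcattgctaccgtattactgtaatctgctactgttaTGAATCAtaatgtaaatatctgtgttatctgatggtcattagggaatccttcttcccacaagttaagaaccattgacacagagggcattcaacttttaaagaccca
Gab1 intron, nearest start Smarca5, chr8:80804096-80804295: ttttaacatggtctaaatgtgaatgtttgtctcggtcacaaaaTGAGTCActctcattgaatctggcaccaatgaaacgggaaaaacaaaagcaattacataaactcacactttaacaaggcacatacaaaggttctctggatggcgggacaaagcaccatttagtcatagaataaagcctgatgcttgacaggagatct

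Among the named peaks, RUNX matches were in 3 of the 10 higher and 3 of the 9 lower peaks read, against 19.8% of all peaks, and AP-1 matches in 1 of 10 and 3 of 9, against 28.1%. No SMAD word was found in any of them (0.234% of all peaks). Ear1 and Ear10 code for eosinophil-associated ribonucleases. Their whole peaks shared 364 words of 50 bases, 25.9% of those of the Ear1 peak and 27.3% of those of the Ear10 peak. Rnaset2a and Rnaset2b code for lysosomal ribonucleases of the T2 family, and their peaks shared 1593 such words, 83.3% and 83.4% of the 2 peaks. Reads from such copies may have been placed at either, so the Ear and Rnaset2 peaks are uncertain as to locus and not independent of each other.

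No peak passed the test of the difference. With limma, a peak was called at a difference of at least 0.58 on the log2 scale and a Benjamini-Hochberg adjusted p of at most 0.1, and 0 of 136630 peaks (0.0%) reached both, the smallest adjusted p being 0.229. edgeR's quasi-likelihood test on the recovered reads also called 0, while DESeq2 called 2255. At an unadjusted p under 0.05, limma held 9190 peaks higher in the lungs (6.73% of all) and 5783 lower (4.23%), edgeR 17125 in all and DESeq2 17738. The split of those peaks depended on the test, with 61.4% of them higher in limma against 49.7% in edgeR. The median standard error of the difference was 0.51, close to the fold threshold itself.

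The replicate numbers of the lungs were taken as pairing samples, though the labels state no pairing. Deviations from the group mean correlated between same-numbered lung samples at 0.49, 0.12 and 0.21, while in the pancreas the values were -0.33, 0.03 and -0.33. Lungs Smad4 off 2 with restored 3, and off 3 with restored 2, also correlated, at 0.18 each, so the numbers did not separate replicates 2 and 3. With a block for the replicate number in the lungs alone, limma called 2385 peaks, 1736 higher in the lungs (1.27% of all) and 649 lower (0.475%). With a block in every organ it called 248, 194 higher and 54 lower, and 0 with GC correction as well. The outcome without a block rested on single lung samples. At an unadjusted p under 0.05, limma held 14973 peaks with all samples. Without lungs Smad4 off replicate 1 it held 9242, and without replicate 2 of that group 23502. Leaving out lungs Smad4 off replicate 2 gave 4000 calls (2607 higher, 1393 lower), while leaving out lungs Smad4 restored replicate 1 gave 4, pancreas Smad4 off replicate 1 gave 1, and each other sample 0. Of the 2385 peaks called with the lung block, 1896 (79.5%) were also among the 4000 (47.4% of those), and 1454 (61.0%) among the 2255 of DESeq2 (64.5%).

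**Figure D1:**
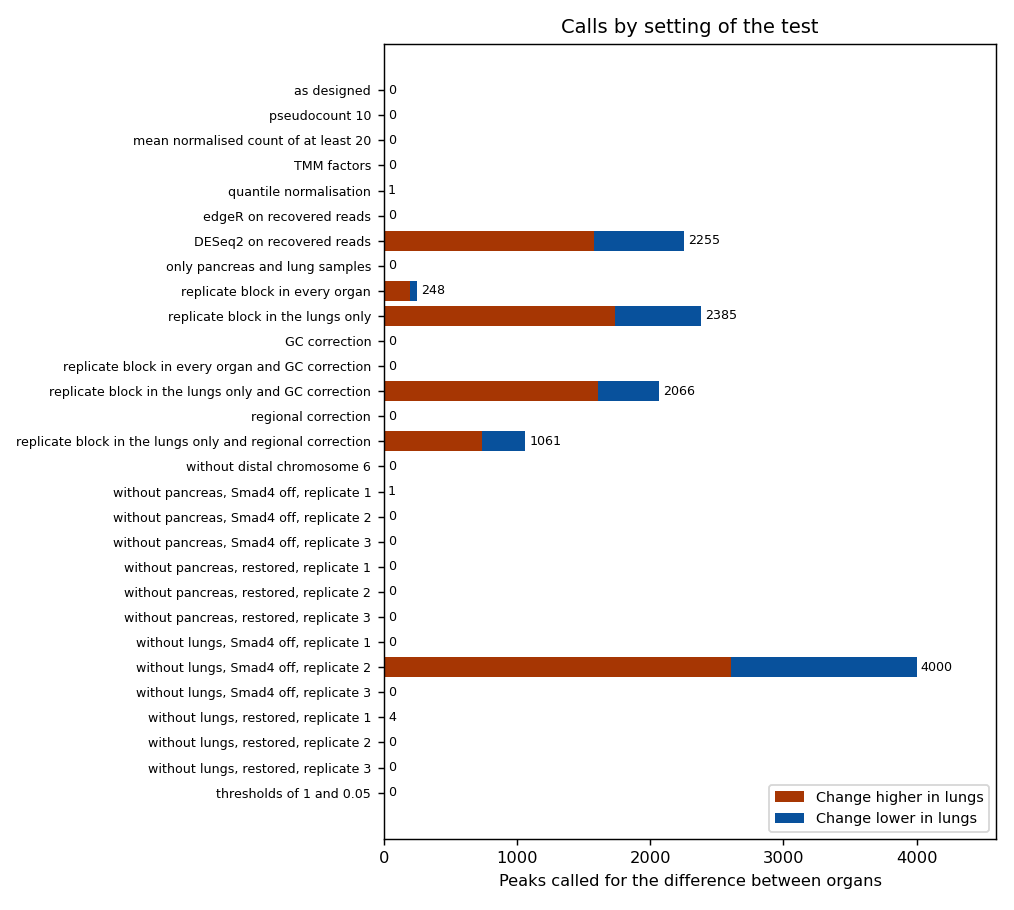
Number of peaks called for the lung-minus-pancreas difference (horizontal axis) under the test as designed and 28 other settings, with peaks whose change was higher in the lungs in red and lower in blue. As designed 0 peaks were called, the lung block gave 2385, and leaving out lungs Smad4 off replicate 2 gave 4000.

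Over all peaks at once, the difference accounted for 13.1% of the summed squares over the 12 samples (exact permutation test of Smad4 status within each organ, one-sided, 400 arrangements that exchanged lung samples without regard to the pairing of numbers, p = 0.155, smallest possible 0.005), against a median of 9.28% over the arrangements. Without lungs Smad4 restored replicate 1 the share was 17.4% (exact permutation p = 0.045), and without lungs Smad4 off replicate 1 it was 10.3% (exact permutation p = 0.535).

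Of the 2 changes that make up the difference, the one in the pancreas held nearly all calls. In the pancreas, limma called 4177 peaks lower (3.06%) and 498 higher (0.364%) with Smad4 restored, and in the lungs 5 (0.00366%). With the lung block these counts were 6666 lower and 2222 higher in the pancreas and 41 in the lungs. At the 4177 peaks lowered in the pancreas the median change was -1.09 there and -0.10 in the lungs, where all peaks had a median of -0.002. Of these peaks 64.4% had the same sign in the lungs, as had 50.4% of all peaks, and 370 (8.86%) also had an unadjusted p under 0.05 in the lungs in the same direction, against 41 (0.982%) in the opposite one, where all peaks had 3.46% and 3.66%. At the 498 raised peaks the medians were 1.29 and 0.14, and 65.7% had the same sign (49.6% of all peaks). Of the 498 peaks, 64 (12.9%) had such a p in the same direction and 15 in the opposite one, where all peaks had 3.66% and 3.46%. The lung medians reversed without lungs Smad4 off replicate 2, to 0.10 and -0.15, so no direction in the lungs is drawn from them.

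By sample, the medians at the lowered peaks, as deviations from the mean of the 12 samples, were 0.26, 0.36 and 0.20 with Smad4 off and -0.82, -0.79 and -0.78 with it restored in the pancreas, a separation fixed by how these peaks were chosen. The lung samples had -0.15, 0.70 and 0.41 with Smad4 off and 0.05, 0.29 and 0.31 with it restored. Those groups overlapped. At the raised peaks the pancreas medians were -0.55, -0.69 and -0.54 with Smad4 off and 0.44, 0.52 and 0.84 with it restored, and the lung medians 0.26, -0.45 and -0.05, then 0.34, -0.05 and -0.07. There too the lung groups overlapped.

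Choosing peaks for a large difference favours opposite signs in the organs, so their signs are a description. Of the 9190 peaks with a change higher in the lungs at an unadjusted p under 0.05, 7221 (78.6%) were lower in the pancreas and higher in the lungs with Smad4 restored, and 1794 (19.5%) were lower in both organs but less so in the lungs. Of the 5783 peaks with a lower change, 5504 (95.2%) were higher in the pancreas and lower in the lungs. Over all peaks the shares with these opposite signs were 21.9% and 25.6%. The peaks with a higher change were the more accessible ones, with a median normalised count of 188 against 42.4 for those with a lower change and 56.7 for all peaks.

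**Figure D2:**
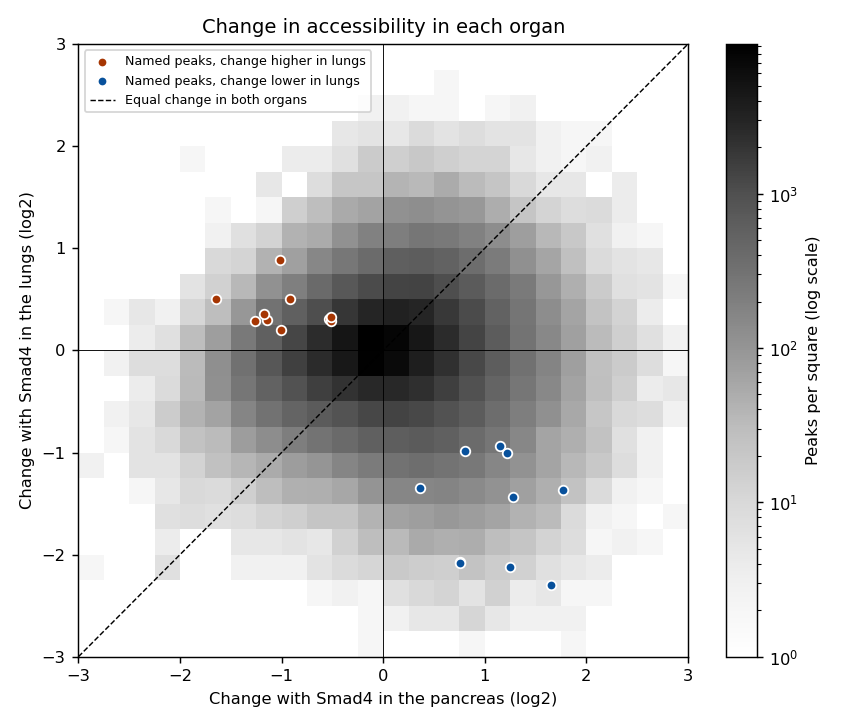
Change in accessibility with Smad4 restored (log2) in the pancreas (horizontal axis) and in the lungs (vertical axis), with the shade giving the number of peaks per square on a log scale and the dashed line equal change in both organs. The plot holds 136601 of the 136630 peaks, and the 20 named peaks lie in the upper left (higher in the lungs, red) and lower right (lower in the lungs, blue).

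The peaks named here were, in each direction, the 10 with the smallest p among those averaging 50 or more normalised counts over the 12 samples and a gene start within 100 kb, outside the distal part of chromosome 6 and with 1 peak a gene. They were chosen on the difference itself, so their values are a description. All 20 were called with the lung block, by DESeq2 and without lungs Smad4 off replicate 2. Of all 136630 peaks these settings called 2385, 2255 and 4000. They tested the same difference by which the 20 were chosen, on the same data, so the calls are not further support. By limma as designed none of the 20 was called (adjusted p 0.229 to 0.237, Benjamini-Hochberg). Of the 10 higher peaks, 4 had groups that did not overlap in either organ and moved in opposite directions, as did 0.392% of all peaks, and of the 10 lower peaks 7 did, as did 0.252% of all peaks.

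The peak with the smallest p lay in an intron of Atg7, whose product activates the conjugation steps that build autophagosomes, at chr6:114648182-114649026, 5053 bp from the nearest gene start. The normalised counts were 178, 145 and 156 with Smad4 off and 77.3, 70.6 and 87.4 with Smad4 restored in the pancreas, against 108, 141 and 114 and then 216, 236 and 217 in the lungs. Every restored pancreas sample lay below, and every restored lung sample above, all samples of that organ with Smad4 off, and the change was -1.01 in the pancreas and 0.89 in the lungs, a difference of 1.90 ± 0.27 (SE, n = 3 a group, as in every difference below). Of the other peaks on the same chromosome, the promoter of Hdac11, which codes for a histone deacetylase, had a difference of 0.85 ± 0.13 (chr6:91155448-91157528). Pancreas tumour cells read 1100.0, 1169 and 1083 normalised counts with Smad4 off and 799, 758 and 757 with it restored, while lung tumour cells read 777, 931 and 934 with it off and 1028, 1108 and 1134 restored. The promoter of Bmt2, whose product senses S-adenosylmethionine upstream of mTORC1, had 0.81 ± 0.13 (chr6:13676972-13678500), with, in the order Smad4 off, then restored, 1477, 1456 and 1465, then 1019, 933 and 1127 in the pancreas and 1175, 1181 and 1139.9, then 1285, 1471 and 1530.3 in the lungs. The promoter of Zfp746, a zinc finger repressor, had 0.83 ± 0.14 (chr6:48085587-48087146), with group means of 952 and 670.0 in the pancreas and 827 and 1034 in the lungs. In these 3 promoters too the groups did not overlap in either organ, and the changes were small, between -0.53 and -0.51 in the pancreas and between 0.29 and 0.32 in the lungs.

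At the other 6 higher peaks only the pancreas groups did not overlap, and the difference came mostly from a loss in the pancreas that limma called there. Slc6a6 codes for a taurine transporter, and the intergenic peak 23231 bp from its start (chr6:91659665-91660822) had the largest difference of the 10, 2.14 ± 0.35. In normalised counts, the pancreas samples held 303, 362 and 225 with Smad4 off and 106, 85.4 and 88.1 with it restored, and the lung samples 192, 393 and 382, then 359, 487 and 472. The restored pancreas samples were the lowest of the 12 and lung Smad4 off replicate 1 came next, so that the lung groups overlapped. In an intron of Kcnq1, the gene of a voltage-gated potassium channel subunit, and over an exon of the provisional gene model Gm38321 (chr7:143121716-143125234), the difference was 1.20 ± 0.19, from 1194, 1087 and 1034 to 580.5, 525 and 542 in the pancreas and from 784, 1266 and 1056 to 1101, 1304 and 1099 in the lungs. The remaining 4 were the promoter of Cidec, a lipid droplet protein (1.43 ± 0.22), the promoter of Tmem151a (1.42 ± 0.24), and intergenic peaks nearest Lsm3, a component of the spliceosome (1.54 ± 0.26), and Snx33, a sorting nexin (1.53 ± 0.27).

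Among the lower peaks the largest difference, -3.94 ± 0.69, was in an intron of Ear1 (chr14:43869129-43870580). Pancreas tumour cells read 30.7, 19.7 and 33.3 normalised counts with Smad4 off and 72.0, 109 and 85.1 with it restored, while lung tumour cells read 163, 104 and 58.6 with it off and 50.5, 9.58 and 14.9 restored. The counts are low, and the groups did not overlap in either organ. Near Ear10 (chr14:43917189-43918568) the difference was -2.71 ± 0.61, with 58.9, 47.3 and 42.6, then 105, 111 and 149 in the pancreas and 183, 73.9 and 93.9, then 53.9, 42.2 and 27.1 in the lungs. The intergenic peak nearest Gm6482 had -2.83 ± 0.64. In the Rnaset2a peak (chr17:8116360-8118318) the pancreas samples rose from 70.0, 50.0 and 79.6 to 145, 129 and 169, a change limma called there, and the lung samples went from 261, 118 and 165 to 91.0, 86.3 and 91.4. Its copy in Rnaset2b (chr17:7008426-7010387, nearest start Gm1604a) had -2.23 ± 0.41, close to the -2.09 ± 0.39 of Rnaset2a.

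The promoter of Irf8, a transcription factor of myeloid and B cells, had a difference of -2.83 ± 0.49 (chr8:120735853-120736881). In normalised counts, the pancreas samples held 159.7, 112 and 100.02 with Smad4 off and 175, 154 and 323 with it restored, and the lung samples 573, 281 and 309, then 138, 62.3 and 75.6. The lung groups did not overlap and the pancreas groups did. Csf1r, the leukocyte marker with a promoter peak, had values in the same directions, with mean counts of 22.3 and 40.3 in the pancreas and 24.1 and 15.3 in the lungs. Of the 25 peaks of the leukocyte list, 3 (12%) were lower at an unadjusted p under 0.05 and 0 higher, against 4.23% and 6.73% of all peaks. The part of leukocytes in the Irf8, Ear1 and Ear10 values was not tested. Arhgap25, which codes for a Rac GTPase-activating protein, had an intronic peak with -1.71 ± 0.39. At an intronic peak of Gab1, a receptor docking protein (chr8:80803883-80804508, nearest start that of the chromatin remodeller Smarca5), the difference was -1.79 ± 0.41, with 56.4, 36.6 and 49.1, then 69.3, 80.5 and 99.64 in the pancreas and 53.4, 53.3 and 62.0, then 21.3, 30.7 and 32.7 in the lungs. There the 3 lung samples with Smad4 off lay close together. At the other lower peaks named here, apart from the one nearest Garem1, replicate 1 was the highest of them. At the higher peaks named here, apart from Bmt2 and Zfp746, replicate 1 was the lowest of them. The last were an intergenic peak nearest Garem1, an adaptor of growth factor signalling (-3.37 ± 0.69), and an intronic peak of Cdcp1 assigned to Clec3b by its start (-3.13 ± 0.68).

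**Figure D3:**
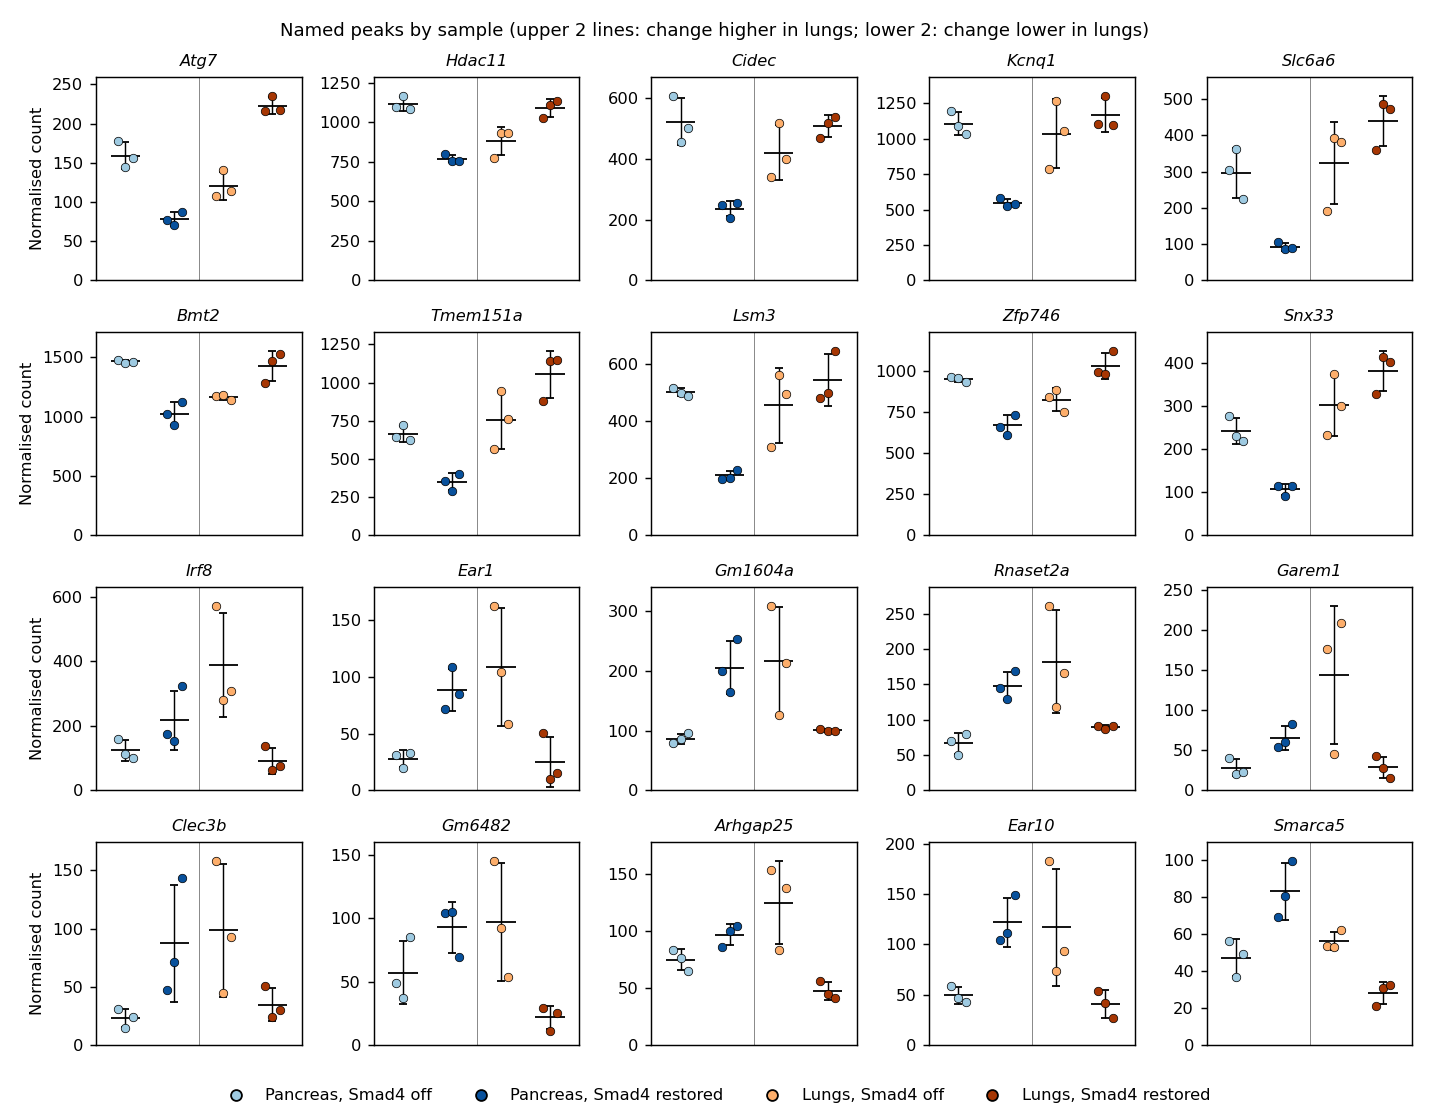
Normalised count (vertical axis, from 0) in each of the 12 samples at the 20 named peaks, with the group mean as a line and the SD (n = 3) as a bar. In the upper 2 lines of panels the restored pancreas samples are the lowest group by mean. In the lower 2 lines the mean rises with Smad4 restored in the pancreas and falls in the lungs. There lungs Smad4 off is the highest group by mean, apart from the Ear10 and Smarca5 panels.

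Whole loci were read through the median over all peaks assigned to a gene, for the 3494 genes with at least 8 peaks averaging 20 or more normalised counts and lying outside the distal part of chromosome 6, whose medians ran from -0.53 to 0.55 between the 5th and the 95th percentile. The 8 genes at each end are named, and, being chosen by this value, are described without a test. Among the higher ones, Foxo6, a forkhead transcription factor, had a median difference of 1.25 over 16 peaks, all 16 positive and 14 of them at an unadjusted p under 0.05. The median deviation of its peaks was -0.11, -0.18 and -0.35 with Smad4 off and -0.90, -0.48 and -0.67 with it restored in the pancreas, and -0.41, 0.39 and 0.07, then 0.48, 1.11 and 1.14 in the lungs. The groups did not overlap in either organ. The sweet taste receptor subunit Tas1r2 (1.29, 8 of 10 peaks at that p), the fibroblast growth factor Fgf18 (1.26, 6 of 8), the tetraspanin Tspan15 (1.12, 8 of 9) and the transcription factor Onecut3 (1.20, 7 of 10) were also among them, with Nkain1 at 1.24, Pamr1 at 1.16 and Asz1 at 1.12. Leaving out any 1 sample kept all 8 medians positive, between 0.69 and 1.49.

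At the other end, the bradykinin receptor gene Bdkrb2 had a median of -3.03 over 9 peaks, 8 of them at an unadjusted p under 0.05 and 7 called with the lung block. Its median deviations were -0.29, -1.07 and 0.37, then 0.52, 0.31 and 0.53 in the pancreas and 2.31, 0.42 and -0.14, then 0.58, -1.80 and -1.75 in the lungs. Here 1 sample, lungs Smad4 off replicate 1, was far above the rest, and in both lung groups replicate 1 was the highest. The same sample was the highest of the 12 at 6 of these 8 loci and the highest lung sample at all 8. It stood out at Syt4, a synaptotagmin (-2.90), and at Tslp, a cytokine of epithelia (-2.44), with deviations of 2.50 and 1.83. The estrogen-regulated gene Greb1 (-1.91) had a median of -1.81 without it, and deviations of -0.02, -0.12 and -0.29, then 0.78, 0.63 and 0.57 in the pancreas and 0.51, -0.04 and 0.42, then 0.25, -1.15 and -1.43 in the lungs, where the restored replicate 1 lay among the samples with Smad4 off. The phosphatase Acpp (-1.91), the granzyme Gzmk (-1.89), the membrane protein Gypc (-1.80) and the kinase Rps6ka2 (-1.77) completed the list. Without that sample the median of Bdkrb2 was -2.22, that of Tslp -1.68, that of Acpp -1.14 and that of Gypc -1.20. With any 1 sample left out the 8 medians stayed between -4.23 and -0.88, the one nearest 0 being Rps6ka2 without pancreas Smad4 restored replicate 3. The peaks of Gypc (chr18:32552154-32648227) and Tslp (chr18:32722733-32818895) are neighbours, and those of Syt4 (chr18:31424079-31523682) lie on the same chromosome. Of the higher loci, Tas1r2, Foxo6 and Nkain1 all lie on chromosome 4. Loci on the same chromosome may not be independent of each other.

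Whole chromosomes were shifted, and 7 of the 10 higher peaks lay on the shifted part of chromosome 6 and 1 on chromosome 19. Over peaks averaging 50 or more normalised counts, the median difference was 0.29 on chromosome 6 before its distal part (3065 peaks), 0.22 on chromosome 8 (4041) and 0.35 on chromosome 19 (2340), against 0.03 on all other chromosomes (62387). The shift ran along these chromosomes, as all 12 windows of 10 Mb on chromosome 6 before its distal part had medians of 0.10 to 0.34, the 13 on chromosome 8 of 0.15 to 0.33 and the 7 on chromosome 19 of 0.29 to 0.38. On chromosome 19 the samples' median deviations were -0.11, 0.13 and 0.07 with Smad4 off and -0.09, -0.27 and -0.22 with it restored in the pancreas, and -0.07, 0.07 and 0.06, then 0.04, 0.33 and 0.14 in the lungs, so both organs took part and the groups overlapped. On chromosome 6 before its distal part they were -0.01, 0.12 and 0.10, then -0.01, -0.20 and -0.08 in the pancreas, and -0.10, -0.07 and 0.03, then 0.05, 0.10 and 0.15 in the lungs. The lung groups did not overlap. In the pancreas the groups all but touched, with replicate 1 at -0.007 with Smad4 off and at -0.011 with it restored.

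In the distal part of chromosome 6 the median difference was -0.76 over 1098 peaks, with lungs Smad4 off replicate 1 at 1.41 and the other 11 samples between -0.38 and 0.35. After each sample was corrected for its median deviation in windows of 10 Mb, a step added after seeing the data, limma again called 0 peaks as designed, and 1061 with the lung block (739 higher, 322 lower), of which 999 were among the 2385 (41.9% of the 2385, 94.2% of the 1061). The difference became 1.56 at Atg7, 1.83 at Slc6a6, 0.53 at Hdac11 and 0.53 at Bmt2, the last 2 being the named peaks no longer called with the lung block. The cause of the shifts was not tested. At an unadjusted p under 0.05 (limma), 10.6%, 11.2% and 17.9% of all peaks on chromosomes 6, 8 and 19 were higher. Over all peaks 6.73% were. The counts given below for single genes hold no correction by window, also for genes on these chromosomes. They rest on few peaks each and are a description without a test.

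**Figure D4:**
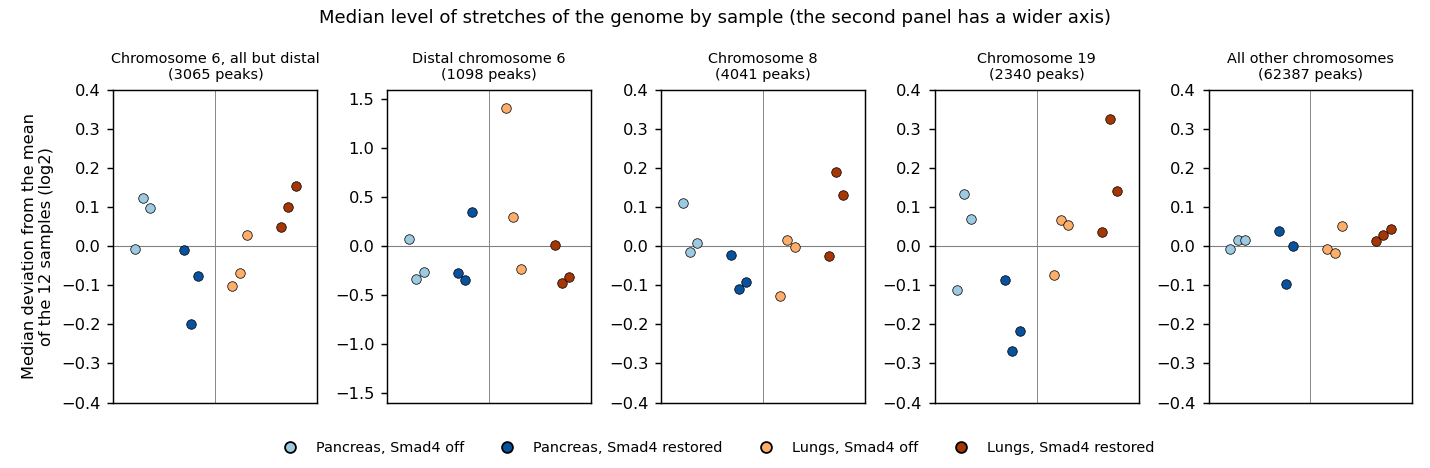
Median deviation of each of the 12 samples from their mean (log2, vertical axis) over the peaks of 5 stretches of the genome, each point 1 sample. On chromosomes 6 (all but distal), 8 and 19 the pancreas samples tend downward and the lung samples upward with Smad4 restored, and the wider second panel shows lungs Smad4 off replicate 1 at 1.41.

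Genes of epithelial identity had the largest share of peaks with a higher change among the 14 lists of genes read here. Over the 170 peaks of its 18 genes the median difference was 0.27, against -0.01 over all peaks, and 37 (21.8%) were higher and 3 (1.76%) lower at an unadjusted p under 0.05, against 6.73% and 4.23% of all peaks. With the lung block 16 were called higher (9.41%) and 0 lower, against 1.27% and 0.475% of all peaks. The share of higher peaks rose with level, from 1.87% in the lowest of 4 bins by mean level through 4.25% and 7.30% to 13.5% in the highest. Lower peaks were 5.18% in the lowest bin and 2.40% in the highest. The median level of the epithelial list was 106 normalised counts against 56.7 over all peaks. Shares of all peaks, here and for the lists below, are therefore not matched for level. The median change of the epithelial list was -0.26 in the pancreas and -0.01 in the lungs. The summed promoter counts of the ductal markers ran from 18542 to 21095 with Smad4 off and from 14132 to 17184 with it restored in the pancreas, and from 19710 to 28405 and 22795 to 24837 in the lungs. The macrophage gene Csf1r had mean promoter counts of 22.3 and 40.3 in the same pancreas groups and 24.1 and 15.3 in the lungs, and the part of these in the list's values was not tested. Cdh1 codes for E-cadherin, the adhesion protein of epithelial junctions, and 6 of its 10 peaks were higher at that p and 5 called with the lung block. Cdh1 lies on chromosome 8, which was shifted as a whole and where 11.2% of all peaks were higher. The intronic Cdh1 peak with the smallest p had 1.41 ± 0.28 at chr8:106630569-106634404. The normalised counts were 752, 637 and 615 with Smad4 off and 332, 322 and 297 with Smad4 restored in the pancreas, against 436, 849.8 and 624 and then 651, 884 and 817 in the lungs. The restored pancreas samples were the lowest, and the lung groups overlapped. At Elf3, an epithelial transcription factor, 5 of 10 peaks were higher, the one with the smallest p having 1.38 ± 0.32 at chr1:135217354-135218404. Of 6 peaks at Krt19, a ductal keratin, 5 were higher (0.80 ± 0.22 at chr11:100152496-100156476), and of 27 at the ETS factor Ehf 9. Grhl2, which maintains epithelial junctions, had 2 of 27 higher and 3 lower.

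The pancreatic lineage list, the transcription factors that specify the pancreas, had a median of 0.26 over 135 peaks of 11 genes, with 28 higher (20.7%) and 5 lower (3.70%). With the lung block 8 were called higher (5.93%) and 2 lower (1.48%). Gata4 had 10 of 26 peaks higher, led by an intergenic peak with 1.56 ± 0.32 at chr14:63325271-63326934. In normalised counts, the pancreas samples held 471, 482 and 446 with Smad4 off and 179.6, 154 and 132 with it restored, and the lung samples 245, 597 and 406, then 353, 381 and 413. In the lungs the groups overlapped there. Gata6 had 7 of 27 peaks higher and Pdx1 4 of 9 (1.44 ± 0.39 at chr5:147234585-147236656). Sox9 went the other way, with 3 of 21 peaks lower and 0 higher. Endoderm factors, which share a gene with that list, had a median of 0.21 over 116 peaks with 15 higher (12.9%) and 1 lower (0.862%), against 6.73% and 4.23% of all peaks. Foxa2, a pioneer factor, had 5 of 22 higher, 4 of them called with the lung block (1.32 ± 0.35 at chr2:147993272-147994132). The corrected medians of the epithelial, lineage and endoderm lists stayed positive, at 0.33, 0.29 and 0.36 with correction for GC content and 0.18, 0.13 and 0.19 with correction by window, against 0.06 and -0.07 over all peaks.

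The genes of epithelial-mesenchymal transition had a median of -0.26 over 183 peaks of 13 genes, from 0.28 in the pancreas and 0.01 in the lungs. Their counts stood below the 6.73% and 4.23% of all peaks, with 4 higher (2.19%) and 7 lower (3.83%), and 1 called higher and 0 lower with the lung block. Vim, the intermediate filament of mesenchymal cells, had 2 of 9 peaks lower, and Fn1, a matrix glycoprotein, 2 of 14, with adjusted p of 0.337 and 0.439 at best (limma, Benjamini-Hochberg). Collagens and matrix genes had a median of 0.01 over 267 peaks, with 10 higher and 4 lower, and integrins 0.09 over 193, with 15 higher and 1 lower, among them Itga6, a laminin receptor subunit (1.15 ± 0.29 at chr2:71738929-71740688).

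In the TGF-beta pathway the difference was close to that of all peaks, with a median of 0.02 over 483 peaks of 31 genes, 31 higher (6.42%) and 15 lower (3.11%). With the lung block 5 were called higher (1.04%) and 0 lower, against 1.27% and 0.475% of all peaks. Of the ligand genes, Inhba, an activin subunit, had 2 of 13 peaks lower. The receptor gene Tgfbr2 had 4 of 28 peaks higher, 2 called with the lung block (1.78 ± 0.45 at chr9:116252552-116253014). Pancreas tumour cells read 61.5, 77.7 and 100.02 normalised counts with Smad4 off and 43.6, 23.5 and 41.4 with it restored, while lung tumour cells read 23.0, 48.9 and 46.5 with it off and 53.9, 56.6 and 67.2 restored. The restored pancreas samples and lungs Smad4 off replicate 1 were the lowest, and the lung groups did not overlap. The co-receptor Tgfbr3 had 2 of 17 higher, while the type I receptors Bmpr1a and Acvr1 had 0 of 12 higher and 2 lower, and 0 of 15 higher and 1 lower. Of the signal transducers, Smad1 had 5 of 21 higher and Smad3 4 of 27, while Smad4 itself had 0 of 9 higher and 2 lower. Its promoter peak read 747 ± 30.8 and 702 ± 30.8 in the pancreas and 766 ± 36.2 and 803 ± 46.6 in the lungs (SD, n = 3). The inhibitory Smad6 and Smad7 had 5 of 19 and 3 of 30 higher and 0 lower.

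Direct target genes of the SMAD proteins had a median of 0.14 over 177 peaks of 15 genes, with 21 higher (11.9%) and 1 lower (0.565%). With the lung block 2 were called higher (1.13%, against 1.27% of all peaks). The median level of these 177 peaks was 103 normalised counts against 56.7 over all peaks, and levels were not matched. Besides Smad6 and Smad7, Pmepa1, a feedback inhibitor of the pathway, had 5 of 13 peaks higher, and Id2, an inhibitor of basic helix-loop-helix factors, 2 of 22 (1.66 ± 0.42 at chr12:25161864-25162395). The 8 Smad4 effector genes named by the study had 87 peaks with a median of 0.22. Of these peaks 4 were higher (4.60%, below the 6.73% of all peaks), 0 lower and 0 called with the lung block. The study picked those genes from related tumours, so they are not independent evidence of a direction. CDK inhibitors, which hold the cell cycle, had a median of -0.14 over 39 peaks that turned to 0.07 with correction by window. Of these peaks 2 were higher (5.13%) and 1 lower (2.56%), both below the shares of all peaks. Cdkn1b, with 9 of those peaks, lies in the distal part of chromosome 6, as does Tead4, with 17 of the peaks of the YAP and TEAD list.

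The study picked the KLF and RUNX families partly from samples of this series, by ATAC-seq of liver and lung metastases with Smad4 off. It combined these with RNA-seq after restoration and also used data on human metastases. Because lung samples used here took part, the 2 lists are not independent evidence either. The KLF factors had a median of 0.03 over 185 peaks, -0.06 against -0.07 over all peaks with correction by window, and 25 higher (13.5%) against 4 lower (2.16%). Klf10, an early response gene of TGF-beta, had 8 of 22 peaks higher (1.29 ± 0.35 at chr15:38373770-38375396), Klf4 4 of 20 (1.21 ± 0.34 at chr4:55604638-55605696) and Klf9 4 of 8. The RUNX factors had a median of -0.10 over 112 peaks with 4 higher (3.57%) and 3 lower (2.68%), both below the shares of all peaks. A Runx1 intronic peak was the one called with the lung block, at -2.40 ± 0.68 at chr16:92738173-92739393. In normalised counts, the pancreas samples held 116, 129.5 and 178 with Smad4 off and 339.6, 261 and 139 with it restored, and the lung samples 197, 84.8 and 142, then 68.5, 25.9 and 39.2. The pancreas groups overlapped and the lung groups did not. AP-1 subunit genes had 11 of 92 peaks higher and 0 lower, with a median of 0.08 against -0.01 over all peaks, and of -0.01 against -0.07 with correction by window, and YAP and TEAD targets -0.08 over 176 peaks with 9 higher and 6 lower.

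By consensus match in the central 200 bases, peaks with an AP-1 word had the lowest median of the 10 families, -0.17 over 38420 peaks, from 0.27 in the pancreas and 0.05 in the lungs. It stayed below that of all peaks with correction for GC content (-0.05 against 0.06) and by window (-0.23 against -0.07). AP-1 words were in 28.1% of all peaks, in 17.3% of those with a higher and 39.6% of those with a lower change at an unadjusted p under 0.05, and in 13.4% and 39.9% of those called with the lung block. Peaks with an HNF4 word had the highest median, 0.20 over 2162 peaks, and 12.1% of them were higher and 2.13% lower. Peaks with an HNF1 word followed at 0.10 over 3691 peaks (10.1% and 3.66%). The full palindromic SMAD word was in 320 peaks with a median of 0.08, 9.06% of them higher and 3.13% lower. KLF, CTCF and ETS medians lay above that of all peaks as designed (0.06, 0.05 and 0.01 against -0.01) and by window (-0.01, -0.03 and -0.06 against -0.07) but below it with correction for GC content (0.05, 0.04 and 0.01 against 0.06). RUNX, TEAD and FOX medians lay below that of all peaks as designed (-0.04, -0.02 and -0.04) and at or above it with correction for GC content (0.06, 0.07 and 0.08), so no direction is drawn for these 6. A word match does not show that a factor bound.

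**Figure D5:**
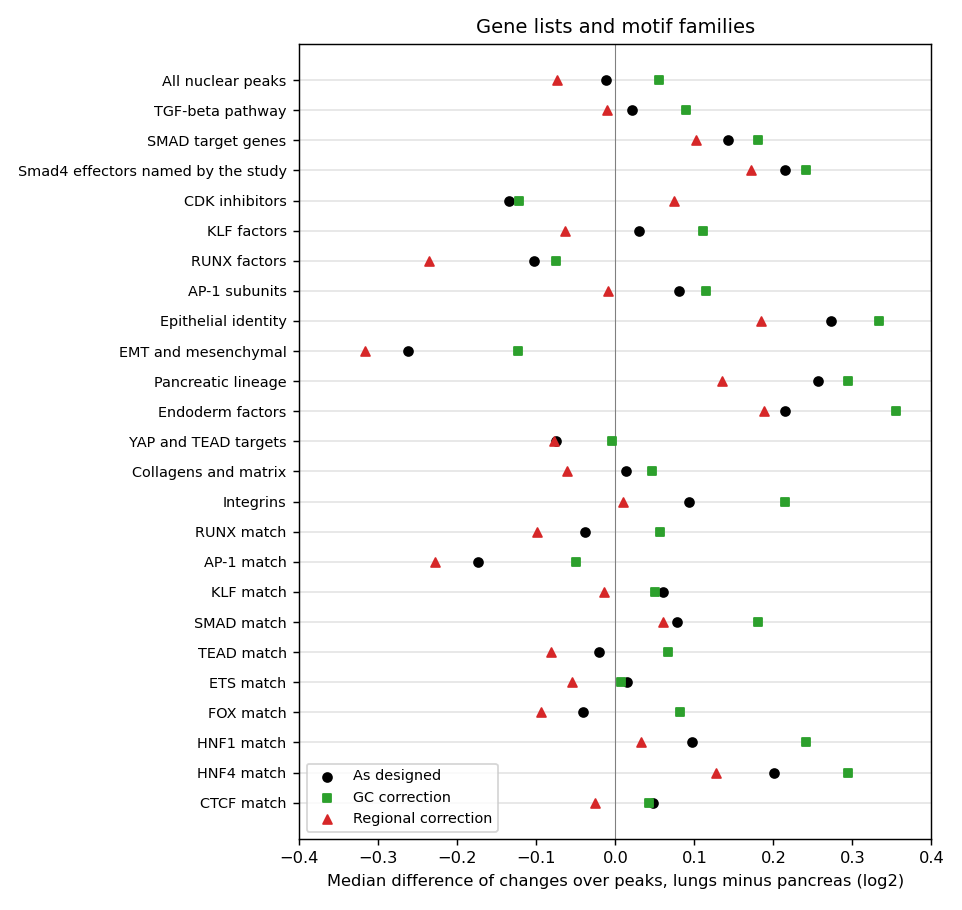
Median lung-minus-pancreas difference (log2, horizontal axis) over the peaks of all nuclear peaks, 14 gene lists and 10 motif families, as designed (black), with correction for GC content (green) and with correction by window of 10 Mb (red). The epithelial, pancreatic lineage and endoderm lists lie between 0.13 and 0.36, the list for epithelial-mesenchymal transition and the AP-1 family lie below 0, and CDK inhibitors change side with the correction by window.

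The difference also followed base composition and level. Over 4 bins of equal size by GC content its median went from -0.15 through -0.08 and -0.01 to 0.09, and after correction for GC content the 4 medians were 0.07, 0.08, 0.07 and 0.03. Over 4 such bins by mean level the medians were -0.25, -0.08, 0.00 and 0.08. Promoter peaks had a median of 0.07 with 9.20% higher and 1.62% lower at an unadjusted p under 0.05, exonic peaks 0.03, intronic peaks -0.01 and intergenic peaks -0.08 with 5.84% and 5.05%. Peaks with over 50% of bases in repeats, 8158 in number, had a median of -0.22. With correction for GC content, promoter peaks had a median of 0.03 and intergenic peaks 0.03.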

How the data were processed

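ATAC-seq libraries of 16 samples were analysed, 12 of them in the comparison. The deposited unit is a signal: reads counted in each peak, normalised for depth. From the study's methods, reads were trimmed (Trim Galore, cutadapt) and mapped to mm10 by Bowtie2, MACS2 peaks with a p of at most 0.001 outside blacklisted regions were joined where they lay within 500 bp, and the authors scaled featureCounts totals by size factors of DESeq2. A shift of read ends for the transposase and the removal of duplicates are not given in the sources used here, and duplicates, if kept, make counts look more precise than they are.

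Each value was a whole multiple of 1 read (100% of values within 0.01 read). The mitochondrial row was left out. The test was limma 3.58.1 (trend and robust options, R 4.3.3) on log2(normalised count + 1) with 6 group means over 16 samples, without a block. edgeR 4.0.16 and DESeq2 1.42.0 were run on the recovered reads, and 28 alternative settings in all. A peak was assigned to the nearest protein-coding start within 100 kb (GENCODE vM21) and called a promoter peak within 1000 bp. The limma test as designed was also run on simulated data with seeded differences in the restored lung samples, 50 peaks at each size. It recovered 6% of differences of 1 on the log2 scale, 14% of 1.5, 42% of 2 and 70% of 3. It also called 9 unchanged peaks. Counts were drawn independently for each peak and sample, without shifts shared by many peaks, so recovery in the data may differ. Lung replicate numbers were taken as paired because each of the 3 same-numbered pairs correlated above 0.1 (0.49, 0.12 and 0.21), and pancreas numbers were not. The labels state no pairing and this choice was made from the same data, so calls with the lung block are a description. The comparison, the named-peak and named-locus rules and the gene lists were chosen with earlier results of these data known. Of the alternatives, the correction by window of 10 Mb was added after seeing the data. Some genes of the lists and of the model are not reported here.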

Additional observations from a re-analysis of the deposited data

Results flagged for a closer look

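At 11 of the 20 named peaks every restored sample lay on one side of every sample with Smad4 off in the pancreas and on the opposite side in the lungs. Over all peaks, 0.392% separated in this way with the change higher in the lungs and 0.252% with it lower. The 20 were chosen by the smallest p for this difference, which favours such a separation. At the 11 peaks limma's test of the difference itself did not pass (adjusted p of 0.229 or more, Benjamini-Hochberg). Higher in the lungs were Atg7 (difference of 1.90 on the log2 scale), Hdac11 (0.85), Bmt2 (0.81) and Zfp746 (0.83), all on chromosome 6 before its distal part. Lower in the lungs were Ear1 (-3.94), Gm1604a (-2.23), Rnaset2a (-2.09), Garem1 (-3.37), Arhgap25 (-1.71), Ear10 (-2.71) and Smarca5 (-1.79), of which the Ear1, Ear10, Gm1604a and Rnaset2a peaks share sequence with another copy.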

How the results depend on the processing

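For the lung-minus-pancreas difference, which had 0 calls as designed, DESeq2 gave 2255, the replicate block in the lungs 2385 (2066 with GC correction, 1061 with correction by window), the block in every organ 248 (0 with GC correction, with none of the 20 named peaks called) and quantile normalisation 1, and leaving out 1 sample gave 0 to 4000. Of the calls in the pancreas, 4675 as designed, there were 8283 with quantile normalisation, 9294 with DESeq2 (2621 higher, 6673 lower), 2437 with the 12 samples alone, 8888 with the replicate block in the lungs (8515 with GC correction, 7641 with correction by window), 2635 with GC correction, 1514 at thresholds of 1 and 0.05, and 453 (without pancreas Smad4 off replicate 2) to 8270 with 1 sample left out. In the lungs, 5 as designed, there were 997 with DESeq2, 41 with the replicate block in the lungs (57 with GC correction, 33 with correction by window), 1 with the block in every organ with or without GC correction, 3 at the stricter thresholds, and 0 (without lungs Smad4 restored replicate 2; limma, 5991 at an unadjusted p under 0.05) to 25 with 1 sample left out. The share of summed squares ran from 10.3% to 18.8% with 1 sample left out. The median change in the lungs ran from -0.34 to 0.10 at peaks lowered in the pancreas and from -0.15 to 0.43 at raised ones, reversed to 0.10 and -0.15 without lungs Smad4 off replicate 2 and to -0.09 at the raised ones without lungs Smad4 restored replicate 1. At the 20 named peaks no setting reversed a direction and 113 of 540 values became calls. The cause was not tested. With 3 samples a group and a median SE of 0.51, differences near the threshold of 0.58 were not detectable at most peaks. In simulated data the test as designed recovered 6% of seeded differences of 1 and 42% of those of 2. Few peaks were seeded there and counts were drawn independently, so these rates may not carry over to the data. The 0 calls therefore do not show that such differences were absent.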

Other observations

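Peaks far from genes leaned the other way from promoters. The 28665 peaks with no protein-coding start within 100 kb had a median lung-minus-pancreas difference of -0.16, with 4.49% higher and 6.11% lower at an unadjusted p under 0.05, against 9.20% and 1.62% of the 14776 promoter peaks. Their median was -0.01 with correction for GC content and -0.19 with correction by window. Among the markers of other cell types, the endothelial genes had 5 of 42 peaks higher (11.9%) and 4 lower (9.52%). All peaks had 6.73% and 4.23%. Pecam1, an adhesion molecule of endothelium and platelets, held 2 higher and 1 lower, and Cdh5, the cadherin of endothelial junctions, 3 lower. At the Cdh5 promoter peak the normalised counts were 49.5, 26.8 and 58.3 with Smad4 off and 59.6, 85.4 and 69.0 with it restored in the pancreas. In the lungs they were 697, 129 and 54.3 with Smad4 off and at most 111 with it restored, and 1 library, lungs Smad4 off replicate 1, stood far above the rest. Of the 45 peaks of the fibroblast list 4 were lower (8.89%) and 1 higher (2.22%). Near Sftpb, a surfactant gene of lung epithelium, 2 of 6 peaks were higher, both called with the lung block. They were the only higher ones among the 33 peaks of the lung epithelium list (6.06%, against 6.73% of all peaks), and 1 was lower. The summed promoter counts of that list averaged 193 with Smad4 off and 99.4 with it restored in the pancreas. In the lungs they averaged 305 and 171.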
